A study of Rattus norvegicus with 4 samples.

Results

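The genes described here encode the sarcomere, the contractile unit of striated muscle, together with desmin, muscle creatine kinase and caveolin 3, which mark muscle cells. They were chosen by name: 38 genes were listed, 34 had a row under that name among the 33778 gene rows, and 12 of these reached a mean of 1 FPKM (fragments scaled to gene length and sequencing depth) over the libraries. Ttn, Myh2, Myh4 and Tcap were not analysed here because no row carried those names. RNA was sequenced from H9C2, a line derived from embryonic rat heart and labelled as cardiac myocytes, in 2 control libraries and 2 libraries from cells given 100 µM PAGln (phenylacetylglutamine, a conjugate of glutamine and the gut microbial product phenylacetate), with 48 h stated for the treatment. All 4 libraries came from this 1 cell line in the same serum-containing medium, and the labels give 2 repeats in one place and 3 in another without saying whether libraries of a group were separate cultures, so a p-value here reflects only how far these libraries scatter, possibly for technical reasons.

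In a sarcomere, myosin heavy chains with essential and regulatory light chains form the thick filament. Thin filaments carry tropomyosin and the troponin complex, in which troponin C binds calcium, troponin I inhibits contraction and troponin T anchors the complex to tropomyosin. Most of these proteins come from small gene families whose members are used in fast skeletal, slow skeletal, cardiac or embryonic muscle, and myoblasts switch most of them on only when they leave the cell cycle and fuse.

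The sarcomere genes of these cells were read unevenly across the protein classes. Cardiac troponin T and slow/cardiac troponin C were abundant, while no troponin I gene reached 1 FPKM. The embryonic and atrial light chain Myl4 was the only essential light chain of the list with a read, and the cardiac heavy chains Myh6 and Myh7 were near 0. No sarcomere gene passed the test between PAGln and control. The deposited values correspond to 13507110 to 14984712 reads per library, so 1 read on a gene of 1 kb was worth 0.0663 to 0.0738 FPKM, and precision is given by read numbers below wherever a gene was rare. Such intervals and floors cover counting error only.

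**Figure D1:**
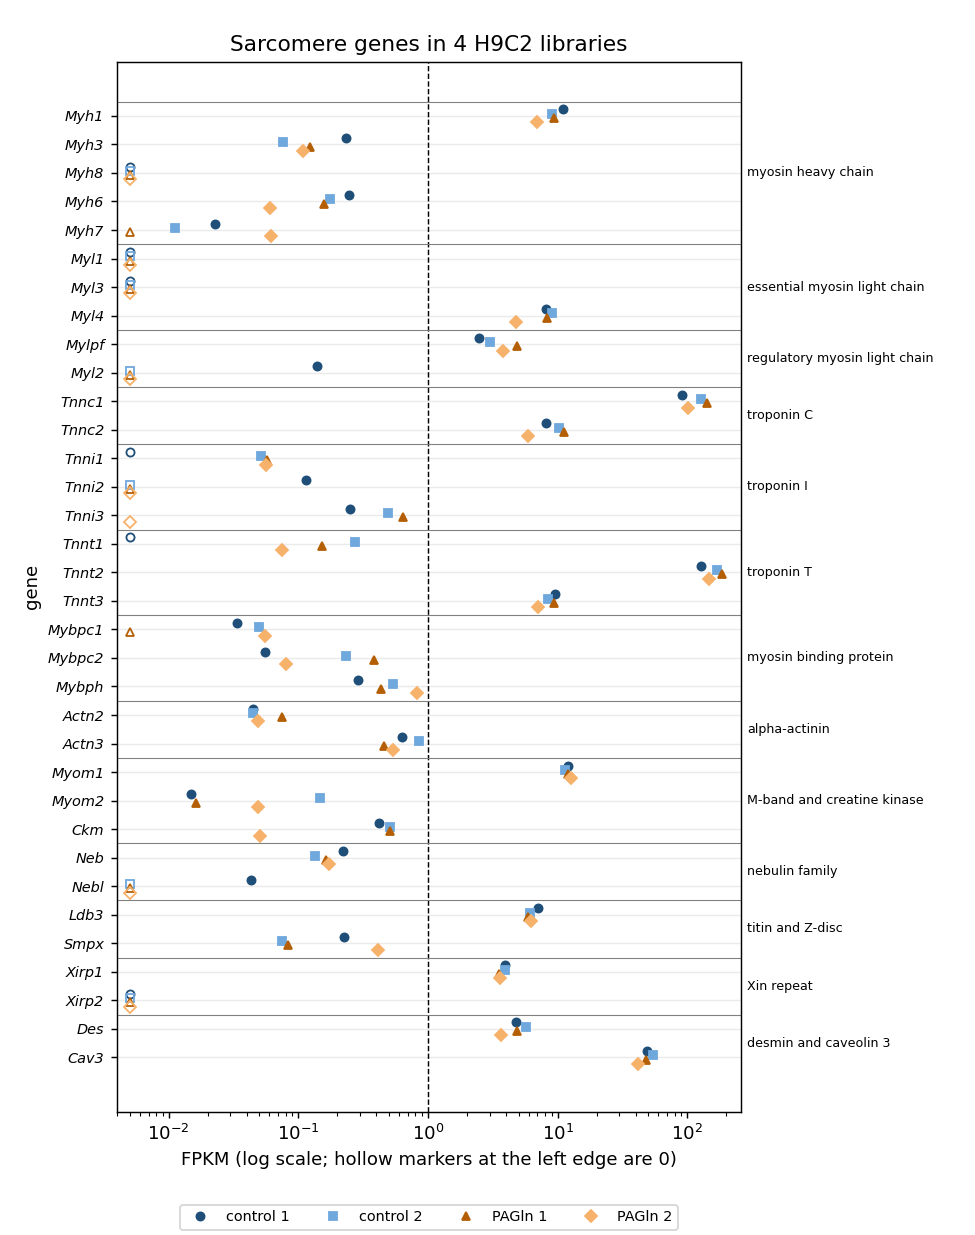
FPKM (log axis) of the 34 sarcomere genes with a row in each of the 4 libraries, grouped by protein class; hollow markers stand for 0 and the dashed line for 1 FPKM. 12 genes lie to the right of the line, led by Tnnt2 and Tnnc1, and the 3 troponin I genes lie to its left.

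The cell type named in the labels was set against marker genes. Of 8 cardiomyocyte markers, 7 lay under 1 FPKM, among them Myh6, Myl2, Myl7, Tnni3, Nppa, Ryr2 and Actc1, and Pln, the inhibitor of the calcium pump, had a mean of 2.47 FPKM. The summed level of the 8 ranged from 3.19 to 3.66 FPKM in control and from 1.85 to 3.79 FPKM in PAGln libraries. Of 8 skeletal myoblast markers 4 reached 1 FPKM, while Myf5, Pax7 and Msc had no read. The 4 were Myod1 (40.5 FPKM on average), Cdh15 (91.2 FPKM), Itga7 (188 FPKM) and Musk. Of 8 markers of differentiated skeletal muscle, 3 did (Myog at 1.33 FPKM, the fusion gene Mymk at 4.78 FPKM and the calcium store gene Casq1 at 7.88 FPKM), and all 7 smooth muscle markers did. Of 7 fibroblast markers 4 did (Col1a1, Col3a1, Pdgfrb and Thy1), with a summed level of 4084 to 4345 FPKM, while Dcn and Lum had no read. Cardiac Tnnt2 (157 FPKM on average) and slow/cardiac Tnnc1 (116 FPKM), which are not in the cardiomyocyte list, were abundant. The low level of 7 of the 8 cardiomyocyte markers goes against the label of cardiac myocytes, and the cells are called H9C2 cells here. Tnnt2 and Tnnc1 do not go against it, but Tnnc1 is also the slow skeletal form. Whether Tnnt2 is confined to heart cells was not tested, so its level does not settle the cell type. Cardiac Tnni3, the troponin on the list, was low. In bulk RNA, fewer cells with a transcript and less of it per cell cannot be told apart. Of 5 endothelial, 6 macrophage and leukocyte and 5 epithelial markers with a row, none reached 1 FPKM, the highest being Vwf at 0.987 FPKM.

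The promoters of 4 sarcomere genes are shown: the neighbours Tnnt2 and Tnni1, then Cav3, the most abundant of the list outside the troponins, and Myl4, the essential light chain with reads. These 4 do not stand for the list: Tnnc1 (116 FPKM on average), for example, is not shown. The counts after the sequences cover all listed genes that had a promoter. They were taken from RefSeq on build GRCr8 and run from 250 bases before to 50 bases after the annotated start. Capitals mark CAGCTG, the form of the E-box CANNTG that the myogenic regulator MyoD is known to prefer, and CATTCC or its reverse complement GGAATG, the core of the MCAT element bound by TEAD factors.
Tnnt2 (chr13:49818873-49819172, + strand): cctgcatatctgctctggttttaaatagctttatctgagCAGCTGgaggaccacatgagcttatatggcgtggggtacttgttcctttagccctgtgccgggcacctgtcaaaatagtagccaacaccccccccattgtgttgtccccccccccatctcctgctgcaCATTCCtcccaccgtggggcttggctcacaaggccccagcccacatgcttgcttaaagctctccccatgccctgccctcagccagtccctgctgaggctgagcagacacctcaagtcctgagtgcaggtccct
Tnni1 (chr13:49781279-49781578, + strand): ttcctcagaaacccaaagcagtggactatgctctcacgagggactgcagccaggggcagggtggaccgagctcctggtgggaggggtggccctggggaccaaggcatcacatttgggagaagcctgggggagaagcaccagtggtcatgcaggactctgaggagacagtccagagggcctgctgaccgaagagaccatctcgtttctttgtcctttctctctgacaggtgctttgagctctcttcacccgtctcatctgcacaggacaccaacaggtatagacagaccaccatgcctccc
Cav3 (chr4:147137743-147138042, + strand): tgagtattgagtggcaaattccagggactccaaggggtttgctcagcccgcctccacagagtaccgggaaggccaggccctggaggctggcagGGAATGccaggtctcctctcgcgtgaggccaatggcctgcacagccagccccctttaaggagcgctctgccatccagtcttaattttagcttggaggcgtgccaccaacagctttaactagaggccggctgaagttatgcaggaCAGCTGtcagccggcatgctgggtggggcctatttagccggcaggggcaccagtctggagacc
Myl4 (chr10:89975900-89976199, + strand): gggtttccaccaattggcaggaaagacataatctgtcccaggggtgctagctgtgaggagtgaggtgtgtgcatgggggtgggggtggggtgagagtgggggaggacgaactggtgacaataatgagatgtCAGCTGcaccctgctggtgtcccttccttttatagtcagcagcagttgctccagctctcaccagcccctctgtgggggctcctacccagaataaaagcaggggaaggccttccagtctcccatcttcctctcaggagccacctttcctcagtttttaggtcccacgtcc
The Tnnt2, Cav3 and Myl4 windows hold 1 CAGCTG each, and the Tnni1 window holds 3 E-boxes of other letters and neither capitalised motif. A RefSeq promoter was at hand for 28 of the 34 genes, 9 of them above 1 FPKM and 19 under it. Searched on both strands, CAGCTG was found in 5 of the 9 (Cav3, Des, Myl4, Tnnt2 and Xirp1) and in 4 of the 19, against 15.1% of all 33469 promoters. CATTCC was found in 3 of the 9 (Cav3, Myh1 and Tnnt2) and in 3 of the 19, against 14.2% of all. The row named Myh1 may join the reads of several genes, as described below. Whether the gene with the Myh1 promoter reached 1 FPKM is therefore not known. Any E-box CANNTG, which includes CAGCTG, was found in 7 of the 9 and 16 of the 19, against 72.1% of all promoters. These matches describe letters in a window and do not show that a factor binds there.

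Troponin T was almost wholly Tnnt2, the form named cardiac, which does not by itself give the cell type. Tnnt2, on chromosome 13 from 52662996 to 52680990 in the deposited coordinates, had 127 and 171 FPKM in control libraries and 185 and 146 FPKM in PAGln libraries. Control 1 was the lowest and PAGln 1 the highest, and the groups overlapped. By its mean of 157 FPKM it ranked 454 of the 12334 genes tested. The fast skeletal form Tnnt3 (chromosome 1, 215666628 to 215683628) had 9.58 and 8.40 FPKM in control and 9.35 and 7.12 FPKM in PAGln libraries, again with overlap. The slow skeletal form Tnnt1 had 7 reads in all 4 libraries together (95% Poisson interval 2.81 to 14.4). Tnnt2 was thus 13.2-fold to 20.5-fold as abundant as Tnnt3 within a library, on the FPKM scale.

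Troponin C followed the same division between forms. Tnnc1, the slow skeletal and cardiac form (chromosome 16, 7292096 to 7295465), had 90.6 and 129 FPKM in control and 143 and 101 FPKM in PAGln libraries. Tnnc2, the fast skeletal form (chromosome 3, 161243587 to 161246351), had 8.12 and 10.3 FPKM in control and 11.3 and 5.94 FPKM in PAGln libraries. Both genes were highest in PAGln 1, and for each the groups overlapped. Tnnc1 exceeded Tnnc2 by 11.2-fold to 17.0-fold within a library. The ratio of Tnnt2 to Tnnc1 stayed between 1.29 and 1.45 in the 4 libraries, although each gene differed between libraries by more than that. The libraries stood in 1 order for both genes, from control 1 through PAGln 2 and control 2 to PAGln 1.

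Troponin I, the inhibitory subunit, was the rarest subunit. Tnni1 (slow skeletal) and Tnni2 (fast skeletal) had 3 reads each over the 4 libraries, and Tnni3 (cardiac) had 16 (95% Poisson interval 9.15 to 25.98). The reads of Tnni3 were 3 and 6 in control and 7 and 0 in PAGln libraries, and its deposited interval overlaps that of Dnaaf3 by 197 bases on the same strand. All troponin I rows together had 22 reads, against 5834 for troponin C and 11394 for troponin T. On the FPKM scale troponin T summed to 277-fold to 374-fold the troponin I sum in control 1, control 2 and PAGln 1. In PAGln 2 troponin I rested on 1 read, and no ratio is given. Troponin I levels in the groups could not be compared at this depth.

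Each troponin I gene lies beside a troponin T gene on the same strand. Tnni1 ends 25.7 kb before Tnnt2 on chromosome 13, with 1 other row (Lad1) between them, and their mean levels were 0.0414 and 157 FPKM. Tnni2 ends 55.0 kb before Tnnt3 on chromosome 1, with 2 rows between them, and their means were 0.0285 and 8.61 FPKM. Tnni3 ends 2.78 kb before Tnnt1, also on chromosome 1, and both were rare, at 0.348 and 0.125 FPKM.

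Among the 5 listed heavy chain rows (Myh1, Myh3, Myh6, Myh7 and Myh8), nearly all reads were in 1 row, and that row may not stand for 1 gene. The row named Myh1, an adult fast skeletal heavy chain, had 11.1 and 9.12 FPKM in control and 9.38 and 6.92 FPKM in PAGln libraries, from 9507 reads in all. PAGln 2 was the lowest and control 1 the highest, with overlap of the groups. Its interval on chromosome 10 (53713938 to 53848347) spans 134 kb, and its gene length of 18143 bases is 3.01 times that of Myh3. It overlaps the row of Myh8, the perinatal heavy chain, by 29530 bases on the same strand. RefSeq places the cluster in the order Myh3, Myh2, Myh1, Myh4 and Myh8. Reads of the Myh2, Myh1, Myh4 and Myh8 genes may therefore be joined in the row, and the level of each cannot be told apart. Myh8 itself was listed at 0 reads, which allows up to 0.0448 to 0.0499 FPKM per library, but an overlapping row could also take its reads.

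The other listed heavy chains were rare. Myh3, the embryonic form, had 21 and 7 reads in control and 10 and 9 reads in PAGln libraries. Myh6, the alpha cardiac chain, had 22 and 16 reads in control and 13 and 5 reads in PAGln libraries. Myh7, the beta cardiac and slow skeletal chain 4.72 kb away from Myh6 on chromosome 15, had 2, 1, 0 and 5 reads in control 1, control 2, PAGln 1 and PAGln 2. The Myh6 groups did not overlap, with both PAGln libraries lower. Myh3 was highest in control 1, and the values of Myh7 overlapped. Myh7b, a striated muscle heavy chain outside the list, had 186 reads in all. Heavy chains of this family are similar in sequence, so reads shared between them may have been split by the authors' counting, and these low levels are uncertain.

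Of the listed sarcomeric light chains, Myl4 and Mylpf were the most abundant. Myl4, the embryonic and atrial essential light chain (chromosome 10, 92628356 to 92638100), had 8.19 and 9.09 FPKM in control and 8.26 and 4.79 FPKM in PAGln libraries, on 52 to 109 reads. PAGln 2 alone was low, and PAGln 1 lay between the controls. Myl1 (fast skeletal) and Myl3 (slow skeletal and cardiac) had no read in any library. A count of 0 allows up to 0.188 to 0.209 FPKM per library for Myl1 and 0.22 to 0.245 FPKM for Myl3. Mylpf, the fast skeletal regulatory light chain (chromosome 1, 198655742 to 198658583), had 2.48 and 2.99 FPKM in control and 4.84 and 3.81 FPKM in PAGln libraries, on 27 to 48 reads. Both PAGln libraries lay above both controls. Myl2, the ventricular and slow skeletal regulatory light chain, had 1 read, in control 1. The ratio of Myl4 to Mylpf was 3.30 and 3.04 in control and 1.70 and 1.26 in PAGln libraries, a ratio computed after both genes had been seen and not tested.

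Of the listed genes with a row whose proteins bind or align the thick filament, only Myom1, for the M-band protein myomesin 1, passed 1 FPKM. It had 11.99 and 11.4 FPKM in control and 12.1 and 12.7 FPKM in PAGln libraries, on 834 to 905 reads, and varied least between libraries together with Xirp1. Myom2 had 15 reads in all, 10 of them in control 2. Ckm, the muscle creatine kinase found at the M-band, had 9 and 11 reads in control and 10 and 1 reads in PAGln libraries. The myosin binding protein genes Mybpc1 (slow skeletal), Mybpc2 (fast skeletal) and Mybph had 8, 39 and 55 reads over the 4 libraries. Mybph was highest in PAGln 2 with 21 reads and lowest in control 1 with 8.

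At the Z-disc, where thin filaments are cross-linked, Ldb3, a PDZ and LIM domain protein that binds alpha-actinin (chromosome 16, 10878334 to 10941501), had 7.02 and 6.10 FPKM in control and 5.96 and 6.21 FPKM in PAGln libraries. Control 1 was the highest, and control 2 lay between the PAGln values. The sarcomeric alpha-actinins were rare: Actn2 had 9 reads in all, and Actn3, the fast skeletal form, had 27 and 37 reads in control and 18 and 21 reads in PAGln libraries. Neb, the giant thin filament protein nebulin, had 69 and 42 reads in control and 46 and 49 reads in PAGln libraries over a gene length of 20858 bases, a mean of 0.173 FPKM. Its cardiac relative Nebl had 3 reads, all in control 1, and Smpx, a small muscle protein, had 10 reads. Xirp1, an actin-binding Xin repeat protein (chromosome 8, 128702133 to 128711221), had 3.91 and 3.96 FPKM in control and 3.52 and 3.60 FPKM in PAGln libraries, so that both PAGln libraries were lower. Its relative Xirp2 had no read, which allows up to 0.0164 to 0.0183 FPKM per library.

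Cav3, the muscle caveolin of the surface membrane (chromosome 4, 144382945 to 144398917), had 49.3 and 54.1 FPKM in control and 48.5 and 41.6 FPKM in PAGln libraries. Both PAGln libraries were lower than both controls, PAGln 1 by less than the gap between the controls. Des, the muscle intermediate filament desmin (chromosome 9, 82556573 to 82564294), had 4.81 and 5.70 FPKM in control and 4.88 and 3.63 FPKM in PAGln libraries, with overlap. Vimentin, the intermediate filament of mesenchymal cells and myoblasts, was 484-fold to 667-fold as abundant as desmin on the FPKM scale.

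**Figure D2:**
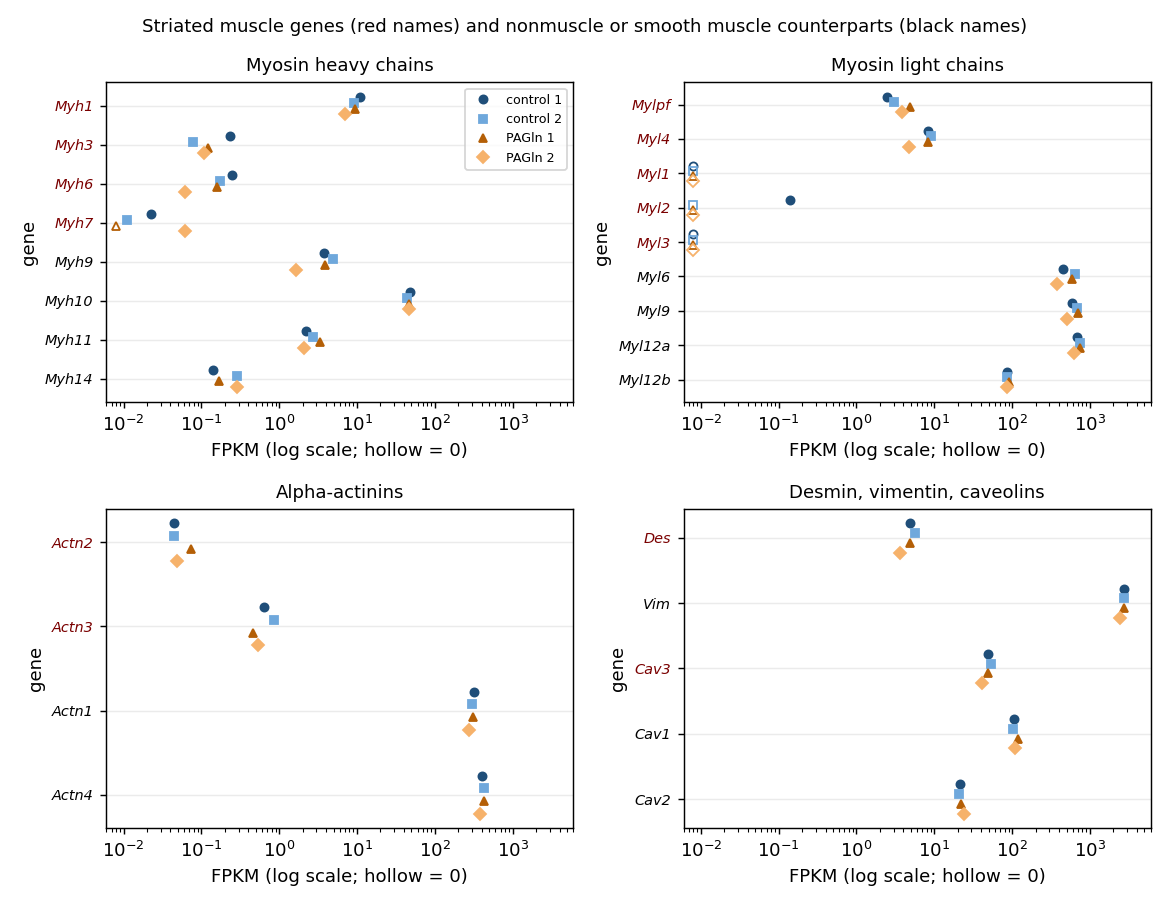
FPKM (log axis) in each library of striated muscle genes (red names) and their nonmuscle or smooth muscle relatives (black names); hollow markers stand for 0. Actn1 and Actn4 lie between 276 and 429 FPKM and Actn2 and Actn3 under 1 FPKM, while Cav3 lies between Cav1 and Cav2.

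The relatives used outside striated muscle gave most of the reads of their classes. Of 14 rows in this list, 12 reached 1 FPKM, led by Vim, Myl12a (698 FPKM on average), Myl9 (619 FPKM) and Myl6 (517 FPKM), the last 3 being light chains of nonmuscle and smooth muscle myosin. Actn4 was 500-fold to 929-fold as abundant as Actn3 within a library, and Cav1 was 1.89-fold to 2.65-fold as abundant as Cav3. Among heavy chains, the nonmuscle gene Myh10 had a mean of 46.2 FPKM. Myh9 had 3.55 FPKM, but a second row named Myh9l1, which RefSeq gives as a synonym of Myh9, had 77.6 FPKM, and reads may be split between these copies. None of the 12 relatives tested passed limma, with 5 higher and 7 lower in PAGln.

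Of 38 genes that build, cap, chaperone or degrade the sarcomere, 19 reached 1 FPKM. The most abundant were Pdlim5, a Z-disc PDZ and LIM domain protein (246 FPKM on average), the chaperone Cryab (164 FPKM), filamin C, Flnc (164 FPKM), and Pdlim7 (147 FPKM). Cryab, Flnc, Pdlim5 and Pdlim7 are also expressed outside striated muscle. Of genes more restricted to striated muscle, Klhl41, a Kelch protein of muscle, had 118 and 121 FPKM in control and 129.7 and 129.5 FPKM in PAGln libraries. Lmod3, a leiomodin that nucleates thin filaments, had 53.0 and 57.9 FPKM in control and 72.9 and 53.8 FPKM in PAGln libraries. Klhl41 and Lmod3 were named after their values were seen, as were Actn4 and Myh10 above. Others stayed under 1 FPKM, among them the Z-disc gene Myot, with no read.

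The comparison of PAGln with control asks whether the transcript levels of these genes differ after 48 h with the metabolite. Of the 12 sarcomere genes tested by limma on log2(FPKM + 1), none passed after adjustment (adjusted p under 0.05), beside 0.0% of the 12334 genes tested, and 1 reached that limit before adjustment, beside 2.12% of them; limma's voom on read numbers also called none of the 12, and none had an unadjusted p under 0.05. In PAGln 8 were lower and 4 higher, with a median log2 fold change of -0.12, beside 0.0021 for all genes tested. Without PAGln 2 the median of the 12 was -0.0019, with 6 lower and 6 higher. Both PAGln libraries lay above both controls for 2 of the 12 (Mylpf and Myom1), beside 11.5% of all genes, and below both for 2 (Xirp1 and Cav3), beside 11.6% of all genes. For 7 rarer sarcomere genes under the filter with 20 or more reads, a limit chosen after the data were seen, the groups did not overlap for Myh6 and Actn3, both lower in PAGln, beside 16.9% lower and 14.4% higher of 1741 such genes. The 95% confidence interval of a log2 fold change had a half-width of 0.29 to 0.76 among the 12.

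Mylpf had the highest log2 fold change of the 12, its mean going from 2.74 ± 0.362 to 4.33 ± 0.734 FPKM (SD, n = 2 libraries each). On the log2 scale the change was 0.51 (SE 0.19, 95% confidence interval 0.022 to 0.99, higher in 2 of 2 PAGln libraries), with an unadjusted limma p of 0.0434 and an adjusted p of 0.9995, so it did not pass. Over all alternatives its log2 fold change lay between 0.37 and 0.65. Myl4 had the lowest, its mean going from 8.64 ± 0.634 to 6.52 ± 2.45 FPKM, or -0.40 on the log2 scale (SE 0.25), which shrank to -0.057 without PAGln 2; it did not pass either. Cav3 went from 51.7 ± 3.37 to 45.02 ± 4.89 FPKM, for which the log2 fold change was estimated at -0.20 (SE 0.12). Xirp1 went from 3.93 ± 0.0350 to 3.56 ± 0.0587 FPKM, with a log2 fold change of -0.11 (SE 0.15), and Myom1 from 11.7 ± 0.450 to 12.4 ± 0.395 FPKM, with 0.083 (SE 0.11). For the row named Myh1 the log2 fold change was -0.28 (95% confidence interval -0.76 to 0.19), for Des -0.26 (-0.74 to 0.22) and for Ldb3 -0.092 (-0.45 to 0.27). Without PAGln 2 these values shrank to -0.090 for the Myh1 row, -0.085 for Des and -0.090 for Cav3, and without control 1 that of Ldb3 was -0.0035. The limma adjusted p of each of the 12 was 0.9995.

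**Figure D3:**
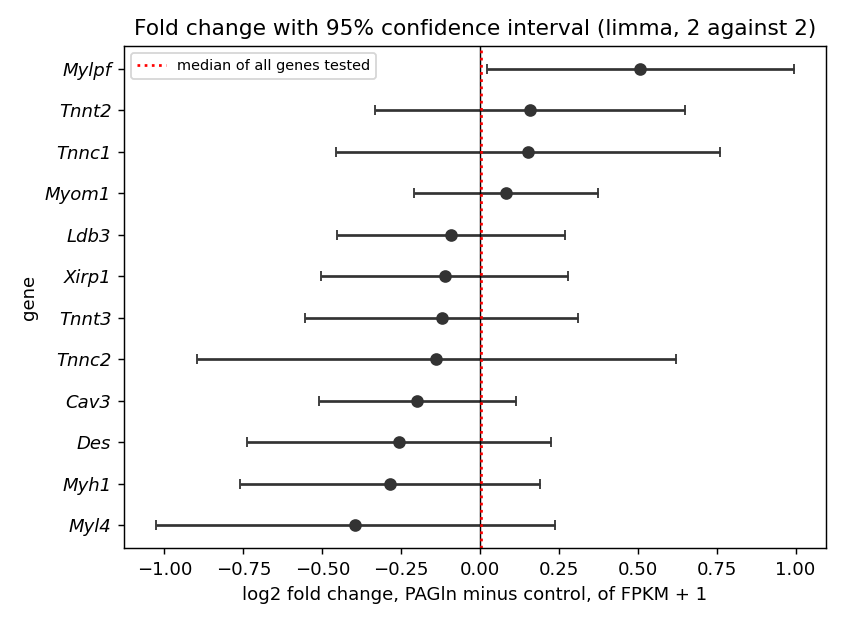
Log2 fold change of FPKM + 1, PAGln minus control, for the 12 sarcomere genes tested, with 95% confidence intervals from limma (2 libraries against 2); the dotted line is the median of all genes tested. The interval of Mylpf lies just above 0 before adjustment, and the other 11 intervals cross 0.

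The troponins gave no stable direction. The log2 fold changes of Tnnt2 (0.16, 95% confidence interval -0.33 to 0.65) and Tnnc1 (0.15, -0.45 to 0.76) turned negative without control 1 (-0.053 and -0.099) and without PAGln 1 (-0.0080 and -0.095). That of Tnnc2 (-0.14, -0.90 to 0.62) turned positive without control 2 (0.017) and without PAGln 2 (0.27), and that of Tnnt3 (-0.12, -0.56 to 0.31) turned positive without PAGln 2 (0.053). The difference between the control libraries was as large as or larger than the difference between group means for Tnnt2, Tnnc1, Tnnc2 and Tnnt3.

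Within a class, the share of the leading gene was taken as a percent of the class sum of FPKM. Some compared classes group different proteins: Cav3 with Des, Ldb3 with Smpx, and Myom1 and Myom2 with Ckm. Their shares are not isoform shares. Tnnc1 made up 91.8% and 92.6% of troponin C in control and 92.7% and 94.5% in PAGln libraries, so that both PAGln libraries were higher, by a mean of 1.39 percentage points that was 0.51 without PAGln 2 and 2.27 without PAGln 1. As a share of reads Tnnc1 had 92.4% (95% Clopper-Pearson interval 90.8 to 93.9) in control 1 and 94.9% (93.5 to 96.1) in PAGln 2. These intervals overlap slightly, which is not a test of the difference between these libraries. Tnnt2 made up 93.0% and 95.2% of troponin T in control and 95.1% and 95.3% in PAGln libraries, a difference of 1.14 percentage points that was 0.047 without control 1. The row named Myh1 made up 95.7% to 97.2% of the sum of the 5 listed heavy chain rows, which leaves out Myh7b and the nonmuscle and smooth muscle chains. With 2 libraries against 2, an exact two-sided permutation test cannot go below p = 0.333. That is the exact p for Tnnc1 (adjusted over the 8 classes compared, 1.00), and the exact p for Tnnt2 was 0.667. The adjustment counts the essential light chains and the Xin repeat genes. There Myl4 and Xirp1 made up 100% in every library, so nothing could be tested. Classes with fewer than 50 reads in a library, among them troponin I, alpha-actinin and the regulatory light chains, were not compared.

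**Figure D4:**
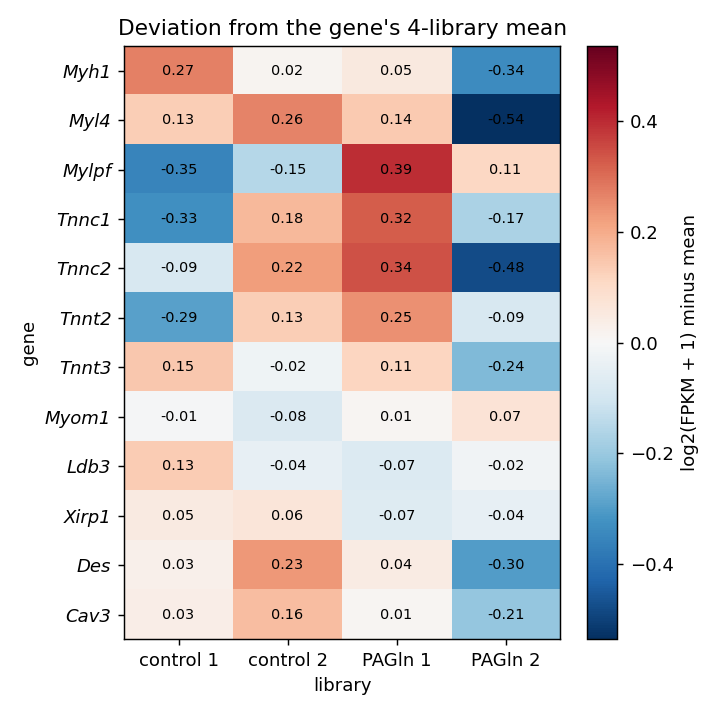
Deviation of log2(FPKM + 1) from the gene's mean over the 4 libraries, for the 12 sarcomere genes tested (rows) in each library (columns); red is above and blue below the mean. PAGln 2 is the lowest library for 6 genes, among them Myl4 at -0.54 and Tnnc2 at -0.48.

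Libraries of 1 group often differed more than the groups did. PAGln 2 was the lowest of the 4 libraries for 6 of the 12 genes (Myh1, Myl4, Tnnc2, Tnnt3, Des and Cav3), beside 29.6% of all genes tested. PAGln 1 was the highest for 4 (Mylpf, Tnnc1, Tnnc2 and Tnnt2), beside 2657 of the 12334 genes tested. Control 2 was also the highest for 4 of the 12, beside 3715 of the 12334. All 7 smooth muscle markers were also lowest in PAGln 2, with a summed level of 4126 FPKM there against 5286 to 5405 FPKM in the other 3 libraries. The skeletal myoblast markers summed to 337 and 389 FPKM in control and to 399 and 336 FPKM in PAGln libraries, lowest in control 1 and PAGln 2, as were Tnnt2 and Tnnc1. Itga7 and Cdh15 make up most of that sum, and Musk ran otherwise, with 46.8 and 37.8 FPKM in control and 47.4 and 49.4 FPKM in PAGln libraries. The part of these marker levels in the values of the sarcomere genes was not tested.

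Of the assembly and turnover genes, none of 19 tested passed limma, 12 being higher and 7 lower in PAGln, with a median log2 fold change of 0.035, and none had an unadjusted p under 0.05. Trim55, a ubiquitin ligase of the sarcomere, had 77.2 and 76.1 FPKM in control and 86.2 and 92.7 FPKM in PAGln libraries, so that both PAGln libraries were higher (log2 fold change 0.22, SE 0.099, limma adjusted p = 0.9995). Obsl1, an obscurin-like cytoskeletal linker, had 27.1 and 31.5 FPKM in control and 26.02 and 22.9 FPKM in PAGln libraries, both lower. Hsp90aa1, a chaperone that folds myosin with Unc45 proteins, had 49.4 and 44.8 FPKM in control and 11.8 and 41.5 FPKM in PAGln libraries. Both PAGln libraries were lower, but the strong drop stood in PAGln 1 alone. The log2 fold change of Hsp90aa1, -1.04, was -0.18 without PAGln 1 and -1.91 without PAGln 2. Klhl40, a relative of Klhl41, went from 9.15 ± 0.250 to 7.86 ± 1.59 FPKM. Among the nonmuscle relatives with the smallest p, Myh9 went from 4.32 ± 0.750 to 2.78 ± 1.60 FPKM and Actn1 from 308 ± 9.81 to 293 ± 23.7 FPKM, with overlap. Reads of the Myh9 row may be split with Myh9l1, as described above, so this row may not stand for the gene. Cav1 (105 ± 3.58 to 114 ± 4.89 FPKM) and Cav2 (21.2 ± 0.458 to 23.1 ± 1.07 FPKM) were higher in both PAGln libraries, and neither passed.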

How the data were processed

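RNA was measured in 2 control and 2 PAGln libraries, grouped by the treatment label, with replicate numbers from the titles. The authors deposited FPKM per gene, 1 table per library, with a gene length per the file headers. Bowtie 0.12.2 and the human build hg38 stand in the submitters' processing notes, while the tables hold rat genes. The coordinates' build and the counter with its strand setting were not given in the sources used. Each FPKM times its gene length was a whole multiple of 1 step per library (100% of non-zero values within 0.01), which gave read numbers on the assumption that the step is 1 read. The 12334 genes whose mean reached 1 FPKM were fitted with limma 3.58.1 in R 4.3.3 on log2(FPKM + 1), which understates changes of low genes, by two-sided moderated tests (eBayes with trend), Benjamini-Hochberg adjustment over all of them and a threshold of 0.05. A count of 0 was given a floor of 3 reads per library. Shares were compared by exact permutation, with Clopper-Pearson intervals at 95%. The limma script was run on data simulated from limma's own fitted variances with independent libraries. That run checks the code and cannot show whether this model holds for these libraries. Sequences came from RefSeq (GRCr8). All listed genes were accounted for, and of the 2 other lists the 4 most abundant and the 4 with the smallest p were named; Klhl41, Lmod3, Actn4, Myh10, Myot, Myh7b and Myh9l1 fall outside this. The genes, lists and tests were chosen with earlier results of these data known. Alternatives were a pseudocount of 0.1, no filter, quantile normalization, voom on reads, the replicate number as a block, leaving out each library, and shares from reads.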

Additional observations from a re-analysis of the deposited data

How the results depend on the processing

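No sarcomere gene was called under any of the 10 alternatives. Fold changes without the filter or with a block equal the main values by design, so their direction could not change. Counting these, 113 of the 120 log2 fold changes kept their direction, though their sizes often moved by over 1.5 times when 1 library was left out. The 7 that did not are the troponin values without 1 library: Tnnc1 without control 1 (-0.099) and PAGln 1 (-0.095), Tnnt2 without control 1 (-0.053) and PAGln 1 (-0.0080), Tnnc2 without control 2 (0.017) and PAGln 2 (0.27), and Tnnt3 without PAGln 2 (0.053); with 1 library left out these genes ranged from -0.099 to 0.40 (Tnnc1), -0.053 to 0.37 (Tnnt2), -0.55 to 0.27 (Tnnc2) and -0.30 to 0.053 (Tnnt3). Leaving out a library gave 1 to 13 genes called over all genes tested (2 and 1 when control 1 or control 2 was dropped, 5 and 13 when PAGln 1 or PAGln 2 was), and 0 or 1 among the other sarcomere genes (Hsp90aa1, when PAGln 2 was left out). Such fits assume that a single remaining library scatters as the other group does. The share difference of the Myh1 row lay between -0.26 and 1.26 percentage points. That of Ldb3 against Smpx, which are different proteins and not isoforms, lay between -4.04 and 0.79. With the replicate number as a block, 7 genes were called over all genes and no sarcomere gene; deviations of same-numbered libraries correlated at -0.28 over genes. A crossed pairing chosen after seeing the data called 0 genes, with 899 at an unadjusted p under 0.05, 4 of them sarcomere genes. Genes with fewer than 50 reads per library limit what can be said of troponin I, alpha-actinin and the rare heavy chains.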
